A study of Homo sapiens with 2 samples.

Results

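The genes described are the ZNF genes that were detected in HepG2 cells with and without berberine, 210 of the 483 ZNF genes with a probe on the array. They were selected on their names and on measured values. A gene entered when its platform symbol was ZNF followed by a number and at most 1 letter, and when a probe of it had a detection p under 0.01 on both arrays. The brightest such probe by the mean of both intensities stands for the gene. The comparison set was the 8918 other genes measured by the same rule, out of 9128 measured genes in all.

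HepG2 is an established human hepatoma line. Berberine, a plant alkaloid, was given as 40 µM berberine chloride for 4 h, and the control culture received 0.08% DMSO, its solvent, for the same 4 h. To find transcripts that differ after this short exposure, total RNA from both cultures was measured, each on 1 Illumina HumanHT-12 v4 BeadChip with 47231 probes. There was therefore 1 array per group, and no p-value or standard error between the groups can be given, nor is any difference below checked by a replicate. The sole partial measure of error was the scatter between probes of the same gene, with an SD of 0.246 for the log2 difference of a single probe from 2193 genes with 2 detected probes. The spread between cultures is not part of it.

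Most ZNF genes encode C2H2 zinc finger proteins, in which a zinc ion holds each small finger in shape and a row of fingers reads a stretch of DNA. Many carry a KRAB domain at the N-terminus, which recruits TRIM28 and through it the histone methyltransferase SETDB1, and so silences retroelements and other targets. The KRAB members arose by repeated gene duplication and lie in clusters, above all on chromosome 19, and their transcripts are usually scarce. Other members have left DNA binding for work in RNA processing, ribosome assembly or mitosis.

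The berberine array was the brighter of the pair, with a median probe intensity of 130.1 against 120.6 on the control array, while 15415 probes (32.6%) and 15341 probes (32.5%) were detected. The lowest detected intensity was 151.5 on the berberine array and 141.6 on the control array. Non-normalized intensities are printed here for both arrays, and each difference is the berberine value minus the control value on the log2 scale, after background correction and quantile normalization. A gene with nearly equal printed intensities can therefore have a difference below 0. Of 10 hepatocyte markers, 9 had a named probe and all 9 were detected, with differences between -0.18 and 0.26. No marker with a named probe was detected on either array among 5 fibroblast, 4 endothelial and 3 immune genes.

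Of the 483 ZNF genes, 210 (43.5%) were measured on both arrays, against 45.5% of all 20046 genes with a probe. A further 10 were detected only with berberine, 14 only without it, and 248 on neither array. The remaining gene, ZNF626, named after its values were seen, had different probes detected on each array. All 210 measured genes matched a RefSeq gene under the same symbol, and 3 of them, ZNF876P, ZNF252P and ZNF286B, are not annotated as protein-coding. Most measured ZNF genes were dim. Their median intensity was 239 on the berberine array and 236 on the control array, and 114 of the 210 lay in the lowest 3 of 10 bins of equal size into which all measured genes were divided by mean intensity.

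As a group, the ZNF genes were slightly lower in berberine-treated cells. The median log2 difference was -0.08, with quartiles of -0.38 and 0.17 and a range of -0.96 to 0.84, and 118 genes lay below 0 and 92 above it. The median over all measured genes was -0.01. Other genes of like intensity, weighted by the number of ZNF genes in each bin, had a median of -0.02, so the ZNF median lay 0.06 below theirs. This gap is small beside the SD of a single probe, and also beside the spread among the ZNF genes themselves, whose SD was 0.39. Neither SD measures the error of a median over many genes, and the gap was not tested. Across the 210 genes the difference had almost no rank correlation with mean intensity (Spearman rho -0.06) or with the length of the gene on the genome (rho 0.05). All these genes share the same pair of arrays.

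A difference over 1.5-fold, the fold threshold of the study, is called here a higher or lower gene. Of the 210 ZNF genes, 8 (3.81%) were higher and 18 (8.57%) were lower. Over all measured genes 3.89% were higher and 4.09% were lower. The share of higher ZNF genes was thus near this background, and the share of lower ones above it. Dim genes passed the threshold more often than those of middle intensity, except for higher calls among ZNF genes. In the lowest 3 intensity bins 3.51% of ZNF genes were higher and 9.65% lower, against 5.68% and 6.63% of other genes there. In bins 4 to 9, counted from the dimmest, 4.65% of ZNF genes were higher and 4.65% lower, against 3.23% and 3.15% of other genes. In the top bin, 3 of the 10 ZNF genes (30%) were lower and none was higher. In the normalized values that were deposited, from which no background was removed and in which folds of dim probes are smaller, no ZNF gene was higher, against 1.44% of all measured genes. With those values 4 ZNF genes (1.90%) were lower, against 1.01%. These were ZNF232, ZNF430, ZNF652 and ZNF486, and all 4 were among the 18.

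**Figure D1:**
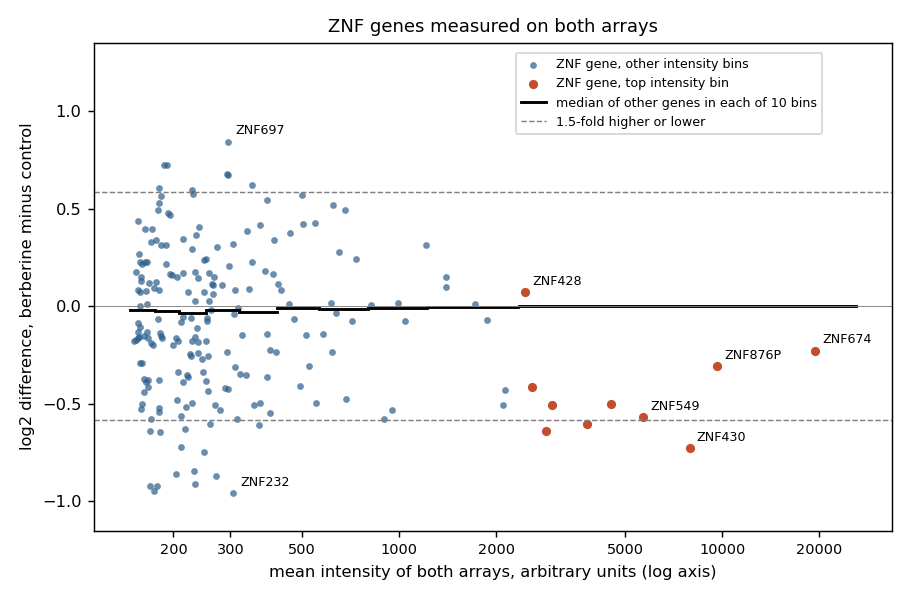
Each point is a ZNF gene, with the mean intensity of both arrays on a log axis and the log2 difference, berberine minus control, on the vertical axis. Of the 10 genes in the top intensity bin (orange), 9 lie below 0, while the medians of other genes (black steps) stay between -0.04 and 0.00.

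The brightest ZNF probes departed most from other genes of their intensity. In the top intensity bin, 9 of 10 ZNF genes were lower in berberine-treated cells, with a median difference of -0.50, whereas the 903 other genes of this bin had a median of 0.00. In the other 9 bins the ZNF median lay between -0.17 and 0.10. A limit of -0.4, set after the values were seen, was passed by 7 of the 10 ZNF genes and by 47 of the 903 other genes (5.20%). The deposited normalized intensity gave a median of -0.50 for these 10 as well. This bin was singled out because its values stood apart, so these counts describe it and test nothing.

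ZNF674, an X-linked KRAB gene, had the brightest probe, with an intensity of 18733 on the berberine array and 19988 on the control array (log2 difference -0.23). The ZNF876P probe, for a transcribed pseudogene, read 9027 with berberine and 10273 without (-0.31). The ZNF430 probe read 6321 and 9531, and its difference of -0.73, 1.65-fold lower, was the greatest in this bin. All 3 probes lost signal on the berberine array although that array was brighter at the median.

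ZNF549, a KRAB gene, had an intensity of 4799 with berberine and 6569 without (-0.57). ZNF14, another KRAB gene, had 3937 and 5140 (-0.50), and ZNF486 had 3195 and 4424 (-0.60, 1.52-fold lower). ZNF549 and ZNF14 stayed under the threshold and ZNF486 just passed it.

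ZNF652, a repressor that works with the corepressor CBFA2T3, had an intensity of 2340 on the berberine array and 3338 on the control array (-0.64, 1.56-fold lower). ZNF682 had 2586 and 3372 (-0.51), and ZNF394 had 2328 and 2841 (-0.41). ZNF428 was the exception, with 2604 and 2301 and a difference of 0.07. Just below this bin, ZNF738 (1826 and 2366, -0.51) and ZNF69 (1907 and 2350, -0.43) were lower to a like degree.

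**Figure D2:**
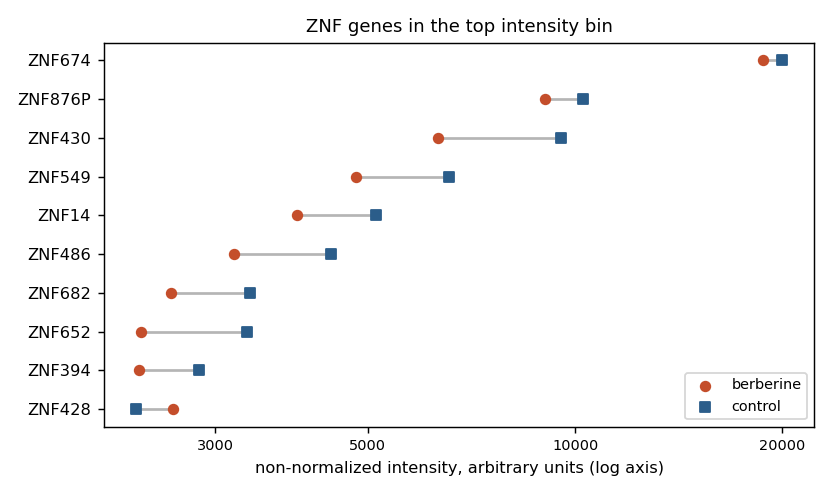
Non-normalized intensity (log axis) of the 10 ZNF genes in the top intensity bin on the berberine array (circles) and the control array (squares). In 9 genes the berberine circle lies left of the control square, and ZNF428 is the exception.

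Second probes of these bright genes did not show the same drop. The second ZNF14 probe, with 230 on the berberine array and 197 on the control array, gave 0.28. The second ZNF394 probe, with 182 and 157, gave 0.29, and the second ZNF549 probe, with 157 and 143, gave 0.11. All 3 were detected on both arrays, and each disagreed in direction with the bright probe of its gene. The ZNF549 value was within the SD of a single probe, 0.246, and its intensities were near the lowest detected. Those of ZNF14 and ZNF394 were little beyond this SD. The second ZNF69 probe, with 237 and 293, went the same way as the first, at -0.63.

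The further probes of ZNF430, ZNF652, ZNF682 and ZNF876P were not detected on both arrays, and ZNF674, ZNF486 and ZNF428 had no second probe. The differences of these bright genes therefore rest on a single probe each. For ZNF14, ZNF394 and ZNF549 the second probe gave a difference above 0. Among the 903 other genes of this bin, the 71 whose further probes were all undetected on 1 or both arrays had a median of -0.09, and 16 of them (22.5%) were below -0.4. The lowest of these 16 were DMC1, DNAJC28 and SLC25A51, with differences of -0.81, -0.65 and -0.61. The share below -0.4 was 5.06% among the 356 other genes with another detected probe and 2.73% among the 476 with no other probe. Of the bright ZNF genes, 3 of 3 with another detected probe and 1 of 3 with no other probe were below -0.4. So were 3 of the 4 whose further probes were not detected on both arrays. The split by further probes was also made after the values were seen. Which transcripts the bright probes read was not tested.

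ZNF430 and ZNF486, which had lower calls with both kinds of values, are related KRAB genes on chromosome 19, and their promoters are alike. The stretches below show this, and were taken from the RefSeq promoter windows of GRCh38.p14, which run from 250 bases before to 50 after each start. Each stretch lies before the start of transcription and is given 5′ to 3′ on the strand of the gene, with the letters CCGGAAG of the ETS factor motif, or their reverse complement, in capitals. The first pair, ZNF430 and ZNF486, lie at chr19:21020609-21020656 and chr19:20167166-20167213, and ZNF264, another lower gene, follows at chr19:57191449-57191499.
ZNF430: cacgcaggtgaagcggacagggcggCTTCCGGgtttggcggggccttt
ZNF486: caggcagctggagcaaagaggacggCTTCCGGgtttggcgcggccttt
ZNF264: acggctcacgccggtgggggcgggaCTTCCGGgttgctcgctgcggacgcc

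In ZNF430 and ZNF486 the motif began 23 bases before the start, and 40 of the 48 positions were identical. They shared an unbroken run of 18 bases around the motif, CGGCTTCCGGGTTTGGCG. Among all 35116 promoter windows this run was found in 5, those of ZNF430, ZNF486, ZNF708, ZNF100 and 1 uncharacterized gene. ZNF708 and ZNF100, further KRAB relatives, were not detected on either array, with intensities of 122 and 119 for the ZNF708 probe and 127 and 117 for the brighter ZNF100 probe. Paralogs this close can also share transcript sequence, and how far their probes read each other was not tested.

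The same motif stood in the promoters of 4 of the 8 higher genes, shown for comparison at chr2:71331631-71331687, chr15:64460538-64460577, chr17:11997435-11997491 and chr19:57389714-57389770.
ZNF638: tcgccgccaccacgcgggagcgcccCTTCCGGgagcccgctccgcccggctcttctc
ZNF609: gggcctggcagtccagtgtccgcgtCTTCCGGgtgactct
ZNF18: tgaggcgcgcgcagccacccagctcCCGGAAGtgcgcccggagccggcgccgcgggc
ZNF548: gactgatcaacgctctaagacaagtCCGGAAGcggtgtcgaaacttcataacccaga

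A promoter window was given for 177 of the 210 genes, in 231 windows. CCGGAAG on either strand was found in 70 of the 231 (30.3%), against 17.7% of 10551 windows of other measured genes and 10.3% of all 35116 windows. The motif was held by 4 of the 8 higher and 4 of the 13 lower genes with a window. Of these lower genes, only ZNF430, ZNF486 and ZNF264 are shown above. Among all 177 ZNF genes with a window, 65 held it. Counts this small cannot show whether the motif separates higher from lower genes. The median difference was 0.01 for the 65 ZNF genes with it and -0.08 for the 112 without. Other letters searched on both strands were closer to the other measured genes. GGGCGG of SP1 and KLF factors was in 61.0% of ZNF windows, against 67.0% for other measured genes and 45.0% of all windows. The shares for ZNF windows, other measured genes and all windows were 7.36%, 9.81% and 7.26% for the E-box CACGTG and 8.66%, 10.0% and 6.58% for GCCATNTT of YY1. GCGCATGC of NRF1 gave 6.49%, 5.22% and 3.05%, TGACGTCA of CREB factors 3.90%, 2.91% and 1.85%, and TGACTCA of AP-1 gave 3.03%, 3.34% and 4.95%. None of these searches allowed a mismatch, and the GGGCGG and CCGGAAG letters can overlap other motifs. The median GC content was 62% in ZNF windows, 65% in those of other measured genes and 58.7% in all. A match describes the letters and is not a measured binding site.

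The largest increases were seen at dim to moderate probes. ZNF697 was 1.79-fold higher, with an intensity of 357 on the berberine array and 232 on the control array (log2 difference 0.84), and 1.46-fold higher in the deposited values. ZNF638, an RNA-binding protein that also helps to silence unintegrated retroviral DNA, had 218 with berberine and 163 without (0.73). ZNF609, which binds the cohesin loader NIPBL and the Integrator complex, had 213 and 160 (0.72). None of these 3 passed the threshold in the deposited values.

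ZNF280D had an intensity of 346 on the berberine array and 241 on the control array (0.68), and its further probes gave 0.46 and 0.14. ZNF133, a KRAB repressor, had 347 and 242 (0.67), and ZNF627 had 413 and 287 (0.62), with 0.21 at its second probe. The further probes of ZNF280D and ZNF627 thus moved the same way but by less.

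ZNF18, which carries SCAN and KRAB domains, had 202 with berberine and 158 without (0.61), and ZNF548 had 261 and 196 (0.60). The next 4 increases stayed under 1.5-fold. They were ZNF16 (261 and 198, 0.57), ZNF217 (593 and 408, 0.57), ZNF655 (205 and 162, 0.56) and ZNF343 (456 and 326, 0.55). ZNF217, an oncogene amplified in breast cancer that recruits CtBP and LSD1 complexes, was above the control array at a moderate signal.

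The decreases reached somewhat further. ZNF232, a SCAN domain gene, was 1.94-fold lower, with 249 on the berberine array and 364 on the control array (log2 difference -0.96). Its second probe, with 202 and 255, gave -0.77, and the deposited values gave a 1.55-fold decrease for the first. Of the 18 lower genes it was the sole one that passed 1.5-fold at both probes and also in the deposited values of its brightest probe.

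ZNF589, a KRAB gene found in blood stem cells, had 157 and 192 at its brightest probe (-0.94). Its second probe had 164 and 145, which gave 0.23, so the direction of ZNF589 is not settled. ZNF398, whose product ZER6 binds the estrogen receptor alpha, had 153 and 184 (-0.92). ZNF264 had 160 and 196 (-0.92), and the pseudogene ZNF286B had 199 and 266 (-0.91). All 4 genes had at least 1 array under an intensity of 200, where the background correction weighs most.

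ZNF526 had an intensity of 229 on the berberine array and 314 on the control array (-0.87), and ZNF30 had 180 and 227 (-0.86). ZNF200 had 201 and 261 (-0.84), and its second probe gave -0.58, just under the threshold. ZNF692, also known as AREBP, is a repressor of the gluconeogenic gene PCK1 and a substrate of AMPK, and had 217 and 279 (-0.75). ZNF480 (190 and 231, -0.72) and ZNF845 (170 and 195, -0.64) completed the 12 largest decreases together with ZNF430.

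**Figure D3:**
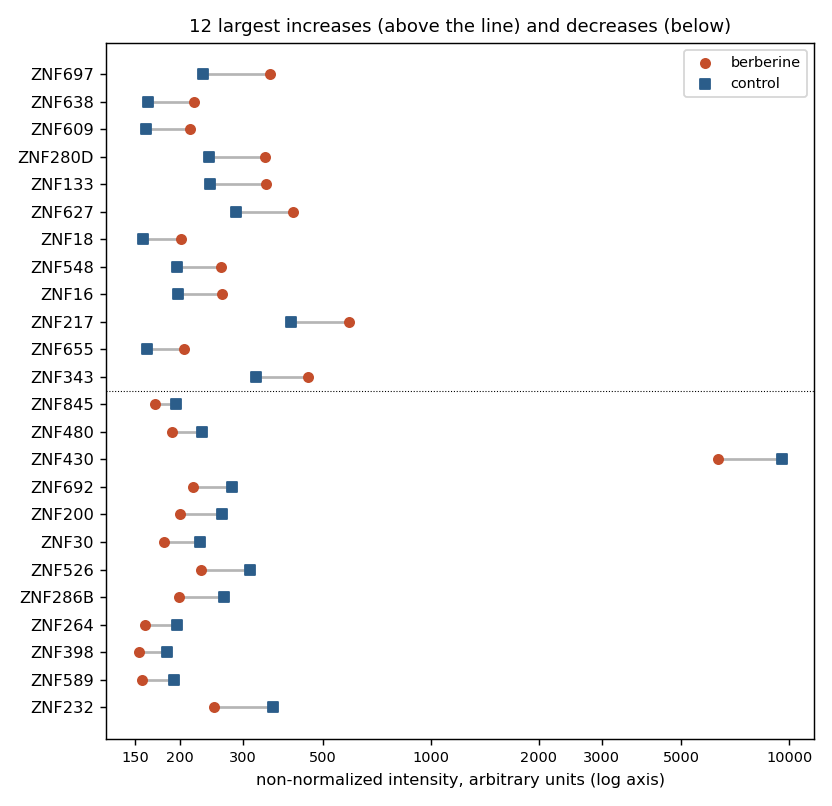
Non-normalized intensity (log axis) on the berberine array (circles) and the control array (squares) for the 12 largest increases, above the dotted line, and the 12 largest decreases, below it. No gene but ZNF430 lies above the 593 that ZNF217 reached on the berberine array.

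The other lower genes were ZNF2 (160 and 178, -0.64), ZNF234 (199 and 236, -0.63), ZNF252P (324 and 415, -0.61), ZNF704 (234 and 285, -0.61), ZNF652 and ZNF486. At the threshold itself, ZNF548 (0.60) and ZNF486 (-0.60) lay just outside, and ZNF483 (769 and 1026, -0.58) and ZNF837 (163 and 179, -0.58) just inside. At the detection limit, ZNF140 (168 and 142, 0.44) and ZNF821 (153 and 149, -0.18) were just detected. ZNF34 (174 and 141) and a probe of ZNF160 (150 and 146) just missed it.

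Where a gene had more than 1 detected probe, the probes often disagreed. Of 34 such ZNF genes, 21 (61.8%) had all probes on the same side of 0, against 58.0% of 2159 other genes. The median spread between probes was 0.24 for ZNF genes and 0.22 for other genes. Of the 26 higher or lower ZNF genes, 20 rested on 1 detected probe. Of the 6 with more, 5 had all probes in the same direction, and ZNF232 and ZNF234 alone passed 1.5-fold at every detected probe. For ZNF234, a KRAB gene, the brightest probe gave -0.63 and the second -0.80, with 173 on the berberine array and 211 on the control array.

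Disagreement was greatest for ZNF789, whose brightest probe gave 0.15, with 284 on the berberine array and 252 on the control array, and whose second gave -1.12, with 192 and 277. These probes are annotated to different transcripts. ZNF589 came next, followed by ZNF322, with -0.58 (281 and 349) and 0.46 (188 and 154), and ZNF14, described above. For these 4 genes neither direction can be preferred from the arrays.

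**Figure D4:**
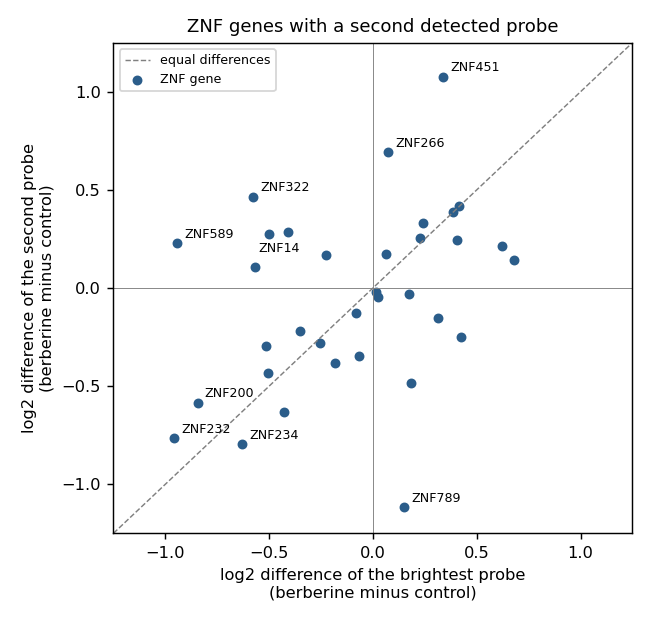
Each point is a ZNF gene with a second probe detected on both arrays, with the log2 difference (berberine minus control) of its brightest probe on the horizontal axis and of its second probe on the vertical axis. ZNF232 and ZNF234 lie low on both axes, while ZNF789 and ZNF589 lie far from the dashed line of equal differences.

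Genes detected on 1 array allow only a lower bound. On the array without detection, the gene was given its own value or that of the dimmest detected probe, whichever was greater. ZNF84, a KRAB gene, was detected only without berberine, with 147 on the berberine array and 189 on the control array. It was at least 2.08-fold lower, or at least 1.33-fold in the deposited values, and it was the only bound past 1.5-fold among these 24 genes. The next bounds among the control-only genes were 0.58 on the log2 scale for ZNF329, just under the threshold, then 1.39-fold for ZNF414, 1.32-fold for ZNF160 and 1.29-fold for ZNF490. Among the berberine-only genes, ZNF34 was at least 1.48-fold higher, ZNF841 1.33-fold, ZNF57 1.26-fold, ZNF8 1.20-fold and ZNF92 1.09-fold.

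Some ZNF proteins have known roles outside the KRAB pathway, and genes picked by such roles after their values were seen are described next. In RNA and protein handling, ZNF598, the ubiquitin ligase of collided ribosomes, had an intensity of 1368 on the berberine array and 1049 on the control array (0.31). ZNF473, a factor of histone mRNA processing, had 419 and 321 (0.41), ZNF326, a subunit of an mRNA elongation complex, had 197 and 168 (0.31), and the SUMO ligase ZNF451 had 459 and 362 (0.34). ZNF830 had 812 and 661 (0.24). At their brightest probes these 5 were above 0 yet under the threshold. They had the highest values of 9 genes picked for roles with RNA, ribosomes or protein modification. Of the 9, 7 were above 0 and 2 below, and the rest are given in the next paragraph. The second detected probe of ZNF598 gave -0.15, and that of ZNF451 gave 1.08, past 1.5-fold. Those of ZNF473 and ZNF830 gave 0.42 and 0.33.

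The spindle protein ZNF207, which binds BUB3, had an intensity of 1792 on the berberine array and 1643 on the control array (0.01). ZNF622, a factor of large ribosomal subunit maturation, had 1030 and 955 (0.02). ZNF593, whose yeast counterpart serves the same subunit, had 1900 and 1840 (-0.07), and ZNF106 had 479 and 466 (-0.07). All 4 differences, each from the brightest probe, were smaller than the SD of a probe. The second detected ZNF207 probe gave -0.02. That of ZNF106, with 392 on the berberine array and 442 on the control array, gave -0.35, beyond this SD.

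Among ZNF proteins that work through chromatin cofactors, ZNF644, a partner of the methyltransferases EHMT1 and EHMT2, had 377 with berberine and 296 without (0.39). ZNF274, which brings SETDB1 to ZNF gene clusters, had 379 and 321 (0.23), and ZNF827, which brings the NuRD complex to telomeres, had 285 and 300 (-0.24). ZNF410, an activator of the NuRD gene CHD4, had 722 and 582 (0.28), while CHD4 had 772 and 823 (-0.21). None of these passed the threshold, whereas ZNF652 of the same group did, as given above.

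Among factors of many promoters, ZNF143 had 272 on the berberine array and 232 on the control array (0.24) and its relative ZNF76 had 171 and 160 (0.01). ZNF148 and ZNF281, a pair of GC-box binding relatives, had 570 and 590 (-0.14) and 452 and 534 (-0.41), and ZNF384 had 247 and 209 (0.29). Of genes tied to metabolism, ZNF746, or PARIS, a repressor of the PGC-1alpha gene, had 576 and 430 (0.42). ZNF202, a repressor of lipid transport genes, had 154 and 164 (-0.53), and of this set ZNF692 alone passed the threshold. ZNF91, which silences SVA elements, had 240 and 266 (-0.39), and ZNF10, the source of the KRAB domain used in engineered repressors, had 166 and 150 (0.13).

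On chromosome 19 lay 79 of the 210 ZNF genes (37.6%), against 5.65% of 8916 other measured genes. These 79 had a median difference of -0.14, with 2 higher and 8 lower (10.1%), and the 131 ZNF genes elsewhere had -0.07, with 6 higher and 10 lower (7.63%). Without the top intensity bin the medians were -0.09 for 73 genes and -0.06 for 127. Other genes on chromosome 19 had a median of -0.03, with 2.98% higher and 2.38% lower. The 18 ZNF genes on chromosome 7 had a median of 0.17, the 6 on chromosome 20 of 0.35 and the 8 on chromosome 10 of -0.34, so no single direction held across chromosomes.

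Neighbouring ZNF genes showed little tendency to move together. Of 32 pairs of measured ZNF genes that are direct neighbours, 17 (53.1%) had the same sign, against 50.6% of 4427 neighbouring pairs of other measured genes. The median gap within a pair was 0.25 for ZNF genes and 0.27 for the others. ZNF419 (-0.50), ZNF773 (-0.54) and ZNF549 (-0.57) stood side by side on chromosome 19 with like values. Other pairs diverged, such as ZNF766 (0.34) and ZNF480 (-0.72).

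The genes through which KRAB proteins act were examined as a list. Of 34 listed co-repressor and heterochromatin genes, 31 had a probe and 28 were measured, with a median of -0.07, none higher and 1 lower (3.57%). Over all measured genes 3.89% were higher and 4.09% lower, and the median was -0.01. The lower gene was ATF7IP2, a relative of the SETDB1 cofactor ATF7IP, with 174 on the berberine array and 216 on the control array (-0.85), and it was under the threshold in the deposited values (-0.40). TRIM28 had 746 and 805 (-0.24) and SETDB1 had 273 and 234 (0.23), both within the SD of a single probe. The HP1 genes CBX1, CBX3 and CBX5 gave 0.03, 0.13 and 0.31.

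C2H2 genes under other names had no lower median as a pool, but the series in it differed. The 42 measured genes of the ZFP, ZSCAN, ZKSCAN and ZBTB series had a median of 0.00, with 21 on each side of 0, 4 higher (9.52%) and 2 lower (4.76%), against 3.89% and 4.09% of all measured genes. The higher ones were ZFP37 (208 and 146, 1.02), ZSCAN29 (215 and 157, 0.81), ZBTB43 (367 and 255, 0.67) and ZBTB21 (221 and 168, 0.65). The lower ones were ZSCAN31 (185 and 228, -0.77) and ZBTB20 (185 and 225, -0.72). None of the 42 passed 1.5-fold in the deposited values. By series, the median was 0.11 for 6 ZFP genes and -0.01 for 25 ZBTB genes. It was -0.05 for 8 ZSCAN genes and -0.08 for 3 ZKSCAN genes. The ZSCAN and ZKSCAN medians lay near the ZNF median of -0.08, though each rests on few genes.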

How the data were processed

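RNA of 1 HepG2 culture per group was measured on 1 Illumina BeadChip each. The labels name a Roche column kit and an Ambion MessageAmp kit for RNA and cRNA, where the methods of the study name other kits. GenomeStudio is credited to the submitters' processing notes, and its version is not given in the sources used here. Non-normalized probe intensity was deposited by the authors beside a detection p-value for every probe on each array. The deposited normalized intensity, also linear, has the same ranks. The deposited detection p-values come from negative controls.

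The non-normalized intensity was processed by the neqc function (limma 3.58.1, R 4.3.3; background from the detection p-values, normexp, offset of 16, quantile normalization, log2), which widens the folds of dim probes. Later steps used Python 3.11.15 with pandas 2.3.3, numpy 2.4.6, scipy 1.17.1 and matplotlib 3.10.9. The platform annotation gave a single symbol to 30113 of the 47231 probes, and 8 with several symbols and 17110 with none were left out. Chromosomes and neighbours came from the RefSeq gene table and promoters from the RefSeq promoter table, both of GRCh38.p14. The steps were tested on simulated data with known folds, all larger than 1.5-fold, so changes near the threshold were not tried.

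With 1 array per group no test was run. The number of arrays limits the precision. Differences over 1.5-fold were counted and set beside the same share over all 9128 measured genes. The text names the 12 largest increases and decreases, the 4 brightest genes, the genes with the highest bounds among those detected on 1 array (at most 5 each way), genes whose probes agree or disagree most, those at the thresholds, and listed co-repressor and C2H2 genes over 1.5-fold. Further genes, among them the bright genes beyond the first 4 and those picked by role, were chosen after their values were seen. The members, lists and rules were all chosen with earlier results of these data known. A split by KRAB domain and finger number was planned and not run, since it needs protein sequences that were not used here. Alternatives covered the values, background, offset, normalization, detection filter, probe choice and symbols.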

Additional observations from a re-analysis of the deposited data

Results flagged for a closer look

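ZNF451, which encodes a SUMO ligase, had a second detected probe that the comparison by brightest probe does not use, with a greater difference between the arrays. This probe had an intensity of 303 on the berberine array and 187 on the control array, a log2 difference of 1.08 and a 2.11-fold increase, against 0.34 at the brightest probe. In the deposited values the second probe gave 0.61. ZNF266 likewise had an unused second probe with 217 on the berberine array and 164 on the control array, a difference of 0.69, against 0.07 at its brightest probe. In the deposited values it gave 0.32, under 1.5-fold. For both genes the annotation names the same transcript for the unused and the brightest probe. Why the probes differ was not tested.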

How the results depend on the processing

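The median difference of the ZNF genes (-0.08) and its gap to genes of like intensity (-0.06) kept their sign in all 11 alternatives, while the counts of higher (8) and lower (18) genes did not keep their size. The alternative with current RefSeq symbols changed no ZNF symbol and so could not differ. All 11 used the same pair of arrays. With the deposited normalized values there were 0 higher and 4 lower genes and the median was -0.0499. Without background correction there were 0 higher and 3 lower, with a median of -0.0451 and a gap of -0.0338. An offset of 50 gave 1 higher gene. Detection on at least 1 array gave 13 higher genes. With no filter on dim probes there were 20 higher and 33 lower, with a median of -0.0384 and a gap of -0.0264. In the brighter 50% of the measured genes, with fewer genes counted, there were 0 higher and 3 lower. Leaving out the top intensity bin, an alternative chosen after seeing the data, gave 8 higher and 15 lower genes, a median of -0.07 and a gap of -0.04. For 31 named ZNF genes, 199 of 248 values stayed within the SD of a single probe, and 49 moved further. The 199 include the values under other detection filters, which kept the same brightest probe and so could not move. Of the 31 genes, 21 moved without background correction and 19 with the deposited values. Another 6 moved with the mean of the detected probes and 3 with an offset of 50. ZNF789, under the threshold at its brightest probe (0.15), alone changed sign, to -0.48 with the mean of its detected probes. No paired analysis was possible because each group has 1 array, and no array could be left out for the same reason. The KRAB split of the median was not run. Low signal over background limits most ZNF genes, and higher calls rested wholly on background-corrected values.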
